A study of Homo sapiens with 2 samples.

Results

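Gene body peaks 1 to 10 kb inside are the ATF1 peaks whose summit lay in an exon or intron of the assigned gene, more than 1000 and at most 10000 bp away from the closer end of that gene. There were 3709 of them among 15064 listed peaks (24.6%, exact 95% binomial interval 23.9 to 25.3%) and among 11661 exonic and intronic peaks. The rule used position and class only, so peak strength, width, strand and motifs were not used in it. Start sites were used in part, since the rule leaves out every summit within 1 kb of a listed gene end. The peaks come from HCT116, a human colon adenocarcinoma line, grown with no treatment named in the labels. The samples were 1 chromatin immunoprecipitation (ChIP) library, made with an antibody that the labels call 3xFlag-ATF1, and 1 input DNA library, neither with a replicate. Peaks of the ChIP library are described here, and the input library was not analysed. The labels do not say how the tagged protein was put into the cells or at what level. With 1 library no difference could be tested, and all intervals cover counting error only.

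ATF1 is a basic leucine zipper factor that binds DNA as a dimer with itself or with its relatives CREB1 and CREM. Its classical site is the cAMP response element (CRE), the palindrome TGACGTCA, which begins with the core TGACG, and kinases such as protein kinase A switch the family on by phosphorylation. Functional CREs often lie just before a transcription start. Many genes have further starts inside their longest transcript, from alternative promoters, antisense transcripts or nested genes, and such a start can lie well inside the gene as a peak table draws it.

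Several of the strongest gene body peaks lay on a start inside the listed gene, and the bases before that start are shown here. The first 6 sequences below are the 120 bases before the RefSeq start (GRCh38.p14, the same assembly as hg38), 5′ to 3′ on the strand of the gene, for the strongest of these peaks with a full CRE there. Capitals mark TGACGTCA. PACRGL (50.68-fold, chr4:20700338-20700457, plus strand) was the strongest of them. ZNF460 (35.93-fold, chr19:57280365-57280484, plus strand) and ZNF200 (25.77-fold, chr16:3235159-3235278, minus strand) encode zinc finger proteins. At ZNF200 the summit lay 8 bp after the start, outside the printed bases. ISCU (21.78-fold, chr12:108562476-108562595, plus strand) encodes the scaffold of iron-sulphur cluster assembly. SLC39A1 (21.05-fold, chr1:153963538-153963657, minus strand) encodes a zinc importer, and PHF8 (17.10-fold, chrX:54044474-54044593, minus strand) a histone demethylase.
PACRGL: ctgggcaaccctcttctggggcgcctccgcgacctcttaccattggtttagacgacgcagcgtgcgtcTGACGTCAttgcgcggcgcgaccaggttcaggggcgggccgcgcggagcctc
ZNF460: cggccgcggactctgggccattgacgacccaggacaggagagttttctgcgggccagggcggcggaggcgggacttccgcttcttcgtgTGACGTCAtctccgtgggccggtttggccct
ZNF200: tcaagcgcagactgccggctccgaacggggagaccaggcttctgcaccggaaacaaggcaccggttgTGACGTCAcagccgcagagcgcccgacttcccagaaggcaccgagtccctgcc
ISCU: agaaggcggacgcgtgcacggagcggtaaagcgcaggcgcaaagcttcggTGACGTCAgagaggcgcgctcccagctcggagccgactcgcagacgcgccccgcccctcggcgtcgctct
SLC39A1: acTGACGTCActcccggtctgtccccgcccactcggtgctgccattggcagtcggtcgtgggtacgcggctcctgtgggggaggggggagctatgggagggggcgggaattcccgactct
PHF8: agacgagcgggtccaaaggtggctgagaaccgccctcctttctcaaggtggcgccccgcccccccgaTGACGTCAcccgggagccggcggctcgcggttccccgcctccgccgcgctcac
The next 3 are shown because very strong peaks of the same class lacked the full element. The peak assigned to OXSM, a mitochondrial fatty acid synthase enzyme, had its summit 7 bp from the start of the divergent NGLY1, a cytosolic peptide N-glycanase (chr3:25790040-25790159, minus strand). The peak assigned to LOC107986715 was 89 bp from the start of GTPBP10, a GTPase of mitochondrial ribosome assembly (chr7:90346596-90346715, plus strand). In both, capitals mark the core TGACG. The last is the start of RAD18 (chr3:8963473-8963592, minus strand), which had neither motif in these bases and 1 TGACG in the whole window of 300 bases.
NGLY1: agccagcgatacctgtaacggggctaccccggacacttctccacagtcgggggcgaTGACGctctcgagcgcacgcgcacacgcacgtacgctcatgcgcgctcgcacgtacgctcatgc
GTPBP10: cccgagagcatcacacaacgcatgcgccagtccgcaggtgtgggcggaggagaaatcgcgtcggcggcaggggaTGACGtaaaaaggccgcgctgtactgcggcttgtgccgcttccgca
RAD18: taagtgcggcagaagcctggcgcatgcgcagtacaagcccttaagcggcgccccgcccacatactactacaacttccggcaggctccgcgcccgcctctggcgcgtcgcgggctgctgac

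The full CRE was found mostly at the stronger of these peaks. Motifs were searched on both strands in the RefSeq start windows (250 bases before to 50 after a start) that held a summit; 478 gene body peaks had their summit in 575 such windows. TGACGTCA was in 17 of 218 windows under peaks of at least 10-fold (7.80%, interval 4.61 to 12.2%), in 2 of 357 under weaker ones (0.560%, interval 0.0679 to 2.01%) and in 649 of all 35116 windows (1.85%). The core TGACG, which the full element contains, was in 58.7%, 31.7% and 24.6% of these windows. CCAAT was in 48.6%, 28.6% and 34.6%. GGGCGG, the GC box, was in 81.7% of the first and 81.8% of the second, against 44.95% of all windows, so windows under strong and weak peaks were alike in this GC-rich motif. TGANTCA, the AP-1 site, was in 3.21%, 4.76% and 7.71%, and the CRE variant TGACGCAA in 0.459%, 0.560% and 0.513%. Base composition was not matched, and windows of neighbouring starts overlap.

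Peaks with a CRE in the window were strong, and the distance of the element from the summit is given as a description. The 18 gene body peaks with TGACGTCA had a median of 15.4-fold (quartiles 12.2 and 20.5) and 437.5 tags, and 16 of them reached 10-fold. For the 178 with TGACG but no full element the median was 9.99-fold with 327 tags, and for the 282 with neither it was 6.78-fold with 220.5 tags. At least 10-fold was reached by 89 of these 178 (50%) and by 69 of these 282 (24.5%). The share was 23.9% over all listed peaks and 13.3% over the class. The centre of the nearest TGACGTCA lay a median of 29 bp from the summit (quartiles 10 and 55.3 bp), and within 50 bp in 13 of 18. Others of the 18 were at ZFP36L1, an mRNA decay factor (16.35-fold), ATL2, a GTPase that shapes the endoplasmic reticulum (12.72-fold), PPM1A, a protein phosphatase (12.46-fold), and VGF, a known CREB target (10.49-fold). Over all windows under gene body peaks 1 to 10 kb inside the full element was in 3.30% (interval 2.001 to 5.11%). In windows under exonic and intronic summits within 1 kb of a listed gene end it was in 5.55% of 3512, and in those under summits over 10 kb inside it was in 3.69% of 298 (interval 1.86 to 6.51%).

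**Figure D1:**
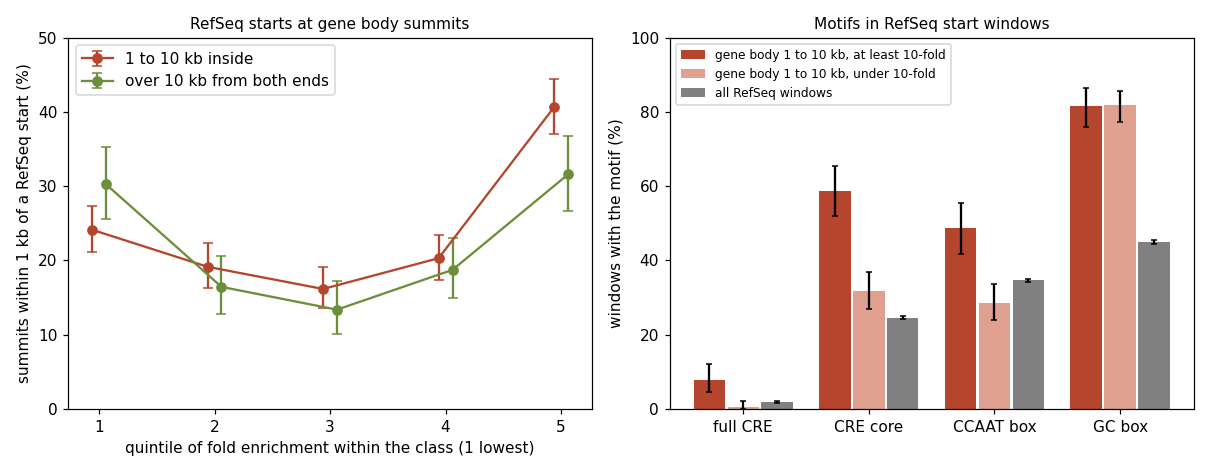
Left, percentage of summits within 1 kb of a RefSeq start by quintile of fold enrichment, for peaks 1 to 10 kb inside and over 10 kb from both ends; right, percentage of RefSeq start windows with the full CRE, its core, a CCAAT box or a GC box. Bars are exact 95% binomial intervals; the highest fold quintile of peaks 1 to 10 kb inside stood at 40.7%, and the full CRE was in 7.80% of windows under peaks of at least 10-fold.

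Some gene body peaks were at a start that the listed gene ends did not show. Of the 3583 with RefSeq windows on their chromosome (no windows of chromosome 8, which holds the other 126, were used here), 864 had a start within 1 kb of the summit (24.1%, interval 22.7 to 25.5%) and 597 within 250 bp. The start was one of the assigned gene alone in 518, of another gene alone in 203, and of both in 143. In peaks over 10 kb from both ends the share was 21.9% (interval 20.04 to 23.9%), and the intervals overlap. It was 76.9% for peaks within 1 kb of a listed end, a description with nothing read from it, because the rule itself separates these classes by distance from gene ends. The start table lacked the assigned gene of 841 of the 3583. Where it held the gene, 792 of 2742 had a start within 1 kb (28.9%, interval 27.2 to 30.6%), against 389 of 1498 over 10 kb inside (25.97%, interval 23.8 to 28.3%). Of the 2719 without a start, 67 were within 1 kb of an outer end of their own gene in RefSeq. Of the 661 with a start of their own gene, 428 (64.8%) were over 1 kb from both outer ends of that gene in RefSeq, so the start was an internal one. The other 233 were within 1 kb of an outer end in RefSeq, where the table's gene extended further. In all, 317 of 3599 matched peaks (8.81%) lay within 1 kb of an outer end of their own gene in RefSeq, so the name of the class depends on the gene models for these.

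A start lay beside a larger share of the strong gene body peaks than of the class as a whole, as in the neighbouring classes. Of those of at least 10-fold, 225 of 477 were within 1 kb of a start (47.2%, interval 42.6 to 51.8%), or 211 of 383 where the start table held the gene (55.1%), and of those of at least 20-fold, 42 of 61 (68.9%, interval 55.7 to 80.1%). By fold quintile the share was 24.1%, 19.1%, 16.2%, 20.3% and 40.7% from the lowest to the highest, so it stood apart in the top quintile, from 8.68-fold upwards, and not along the whole range. By tags it was 6.75%, 9.27%, 18.3%, 34.5% and 52.2%, in the same order as the quintiles. Peaks with a start had medians of 223 tags, 6.92-fold and a length of 1740.5 bp, and those without had 66 tags, 6.13-fold and 1284 bp. Peaks with starts of both the assigned and another gene had the highest medians, 300 tags and 7.55-fold. The larger share at 10-fold and at 20-fold was not particular to this class. Over 10 kb inside, 21.9% of peaks had a start within 1 kb. There it was 34.2% at 10-fold or more and 60% at 20-fold or more (interval 38.7 to 78.9%). Near an end these shares were 76.9%, 86.5% and 90%. By fold quintile the classes differed. Over 10 kb inside the share was 30.3%, 16.4%, 13.4%, 18.7% and 31.6%, so the lowest and highest quintiles were alike there. Of 14514 listed peaks on chromosomes with windows, 54.7% had a start within 1 kb, against 24.1% of this class.

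Gene body peaks were weaker by fold enrichment than those at the listed ends, with fewer tags. Fold enrichment is the authors' ratio to a background that is not stated, and tags are the sequence tags the authors counted in a peak. The 3709 peaks had a median of 6.25-fold (quartiles 4.77 and 8.03, range 3 to 88.56) and 86 tags (quartiles 43 and 215, range 16 to 2072). Peaks within 1 kb of an end had 7.30-fold and 204 tags, those over 10 kb inside 6.92-fold and 46 tags, and upstream peaks 7.81-fold and 275 tags. The peaks 1 to 10 kb inside therefore lay between their neighbours in tags but below both in fold enrichment. Median length followed tags, at 1446 bp for the peaks 1 to 10 kb inside, 1611 bp near an end and 1034.5 bp over 10 kb inside. At least 10-fold enrichment was reached by 493 of 3709 (13.3%, interval 12.2 to 14.4%), against 23.9% of all listed peaks. At least 20-fold was reached by 1.64%, against 5.08% of all listed peaks. The share at 10-fold was 29.5% near an end and 13.1% over 10 kb inside, where the interval of 11.7 to 14.7% overlaps.

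**Figure D2:**
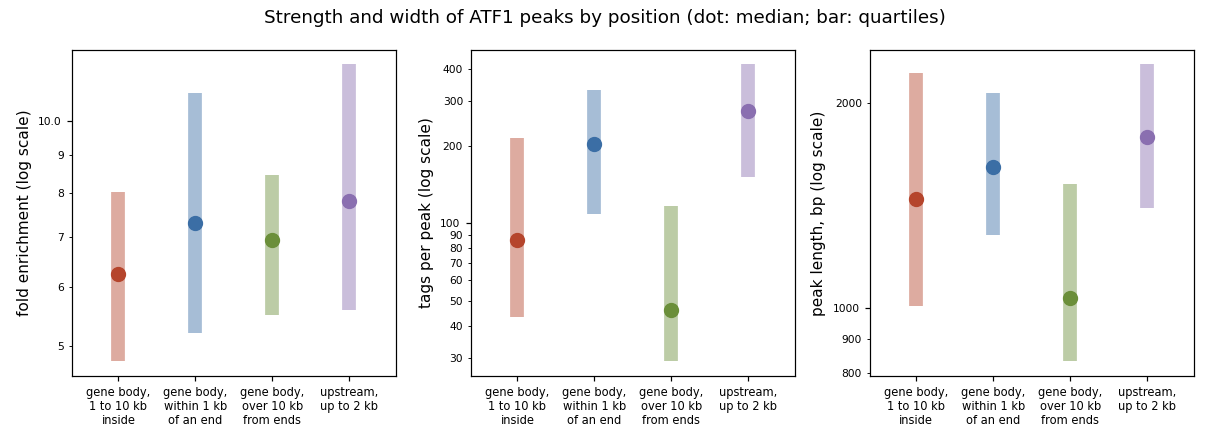
Median (dot) and quartiles (bar) of fold enrichment, tags and length, on log axes, for peaks 1 to 10 kb inside, within 1 kb of an end, over 10 kb from both ends and upstream. Peaks 1 to 10 kb inside have the lowest median fold enrichment, 6.25, with 86 tags, between 204 near an end and 46 over 10 kb inside.

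Within the class, listed summits thinned out with distance from the gene end. There were 1153 between 1 and 2 kb, 1504 between 2 and 5 kb and 1052 between 5 and 10 kb. Per Mb of gene body at that distance in the listed genes this was 41.0 (Poisson interval 38.6 to 43.4), 20.1 (19.1 to 21.1) and 10.4 (9.82 to 11.1) summits. The density within 1 kb of an end was 203.6 per Mb, and between 10 and 20 kb it was 5.38. Median tags were 130, 81 and 62 over the same 3 bins, and the share with a RefSeq start within 1 kb was 33.6%, 21.1% and 18.1%. Fold enrichment did not follow, with medians of 6.05, 6.19 and 6.62. The table lists 1 peak per gene name, so these densities describe listed peaks and not all binding.

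**Figure D3:**
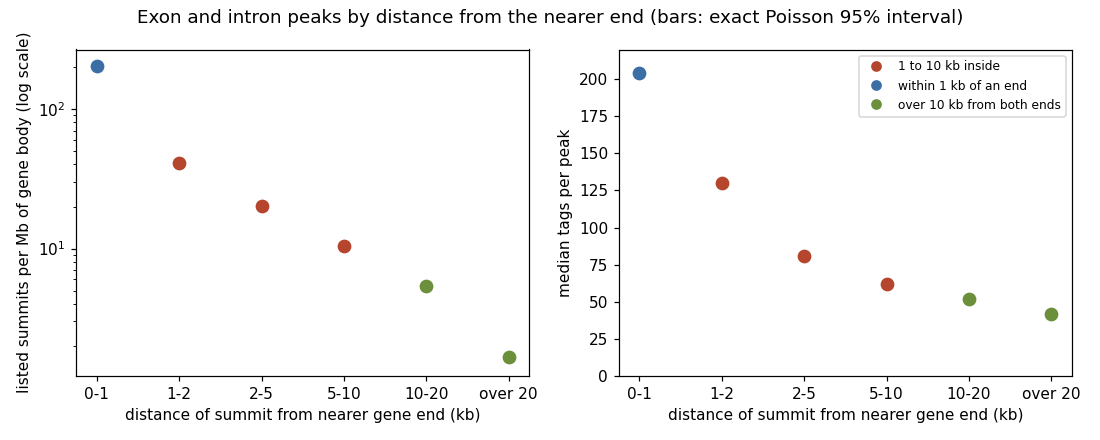
Exonic and intronic summits per Mb of gene body (left, log axis, with exact Poisson intervals that mostly fall within the dots) and median tags per peak (right) by distance from the nearer gene end in kb. Density was 41.0 per Mb at 1 to 2 kb and 10.4 at 5 to 10 kb, and median tags were 130 and 62.

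Exons held 1670 of the gene body peaks (45.03%) and introns 2039, against 72.9% exonic within 1 kb of an end and 25.6% over 10 kb inside. The exonic share was 51.0% at 1 to 2 kb, 45.6% at 2 to 5 kb and 37.6% at 5 to 10 kb. Exonic and intronic members of the class were alike in strength, with medians of 6.095-fold and 93.5 tags in exons and 6.32-fold and 78 tags in introns. The shares reaching 10-fold were 13.8% and 12.8%.

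Whether a listed gene body peak was nearer the 5′ or the 3′ end of its gene differed with the strand of the gene. Strand was known for 2742 of the 3709, of which 1348 (49.2%, interval 47.3 to 51.1%) were nearer the 5′ end. In plus-strand genes 777 of 1111 were (69.9%, interval 67.1 to 72.6%), and in minus-strand genes 571 of 1631 (35.0%, interval 32.7 to 37.4%). In both cases most were nearer the end with the lower coordinate, as were 2468 of all 3709 (66.5%, interval 65.0 to 68.1%). Plus-strand genes made up 40.5% of the class, 55.1% of peaks within 1 kb of an end and 60.0% of upstream peaks. The same split was present over 10 kb inside, at 61.7% in plus-strand and 39.4% in minus-strand genes. In the class, 173 genes also contained a summit listed for another gene. Of these, 120 had one at a higher position than their own and 57 at a lower one. A summit nearer the lower coordinate, as most were, leaves more of the gene at higher positions. These counts were not scaled by the bases on each side, so nothing is read from them. The table holds 1 peak per gene name by a rule that is not stated, and the part of that rule in these shares was not tested.

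**Figure D4:**
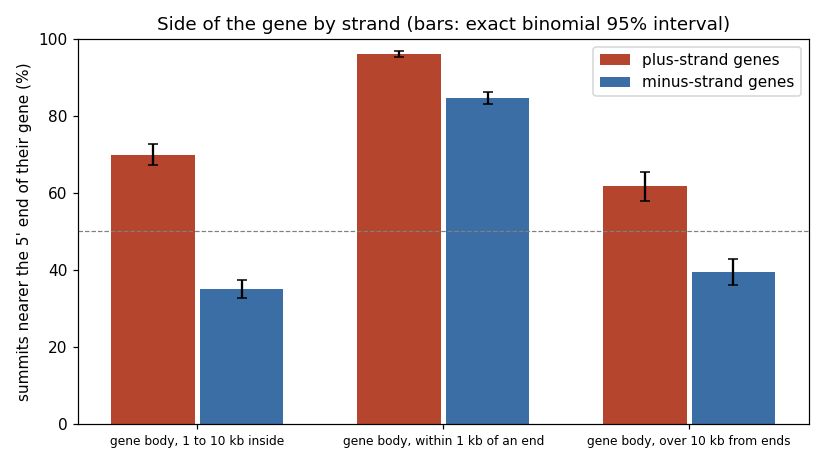
Percentage of summits nearer the 5′ end than the 3′ end of their gene, for plus-strand and minus-strand genes in 3 position classes, with exact 95% binomial intervals and a line at equal shares. For peaks 1 to 10 kb inside, plus-strand genes stood at 69.9% and minus-strand genes at 35.0%.

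Peaks on the 5′ side held more tags in genes of either strand. Median tags were 144 for those nearer the 5′ end and 64 for those nearer the 3′ end, with 6.41-fold and 6.13-fold enrichment. In plus-strand genes the median tags were 152 on the 5′ side and 63 on the 3′ side, and in minus-strand genes 137 and 64. Median fold enrichment on the 5′ and 3′ sides was nearly equal in plus-strand genes, 6.24 and 6.16. In minus-strand genes it was 6.69 and 6.13. A RefSeq start lay within 1 kb of 48.5% of those on the 5′ side and of 9.90% of those on the 3′ side. Among peaks with no start within 1 kb the gap in tags was smaller, with 73 on the 5′ side and 59 on the 3′ side.

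The 20 strongest gene body peaks ranged from 29.44-fold to 88.56-fold, with 176 to 723 tags, and 15 of them had a RefSeq start within 1 kb. Of these 20, 13 were assigned to protein-coding genes, 6 to long non-coding RNA genes and 1 to a name without a match in the reference. RAD18, the ubiquitin ligase that starts post-replication repair, was first at 88.56-fold and 401 tags, and its summit on chromosome 3 at 8963479 was 5770 bp inside the listed gene but 7 bp from the RefSeq start. FKBP7, a prolyl isomerase of the endoplasmic reticulum (33.62-fold, 252 tags), and VCPKMT, the lysine methyltransferase of the chaperone VCP (29.55-fold, 401 tags), were likewise 4 and 48 bp from a shorter RefSeq gene end. SGO1, the shugoshin that protects centromeric cohesin (31.56-fold, 285 tags), had a start 79 bp away and its outer RefSeq end 601 bp away. In these genes the listed model extended past the RefSeq end.

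Other strong peaks sat on internal starts of genes whose outer ends were elsewhere. At PACRGL (50.68-fold, 393 tags) the summit lay 4137 bp inside the gene and 39 bp from a start. SNX12, a sorting nexin of endosomes, had 38.65-fold and 243 tags, 143 bp from an internal start. DDX19B, an RNA helicase of mRNA export, had 29.55-fold and 230 tags at a summit 9459 bp inside the gene and 40 bp from a start. LOC105370034, a long non-coding RNA gene (29.44-fold, 176 tags), had a start 41 bp from the summit. PNPLA8, a membrane phospholipase, had 30.66-fold and the most tags of the 20, 723, with starts of its own and of another gene within 1 kb.

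Further peaks of the 20 lay at the start of a gene other than the assigned one. The peak listed for PELO, a factor that rescues stalled ribosomes (35.96-fold, 196 tags), was 72 bp from the start of its antisense RNA PELO-AS1. That listed for LOC105369609 (36.64-fold, 257 tags) was 82 bp from PARP11, a mono-ADP-ribosyltransferase. The peak of LINC01494 (34.99-fold, 193 tags) was 56 bp from LOC124906119. OXSM (45.24-fold, 208 tags) has no window in the start table, but its own RefSeq end was 44 bp from the summit, beside the start of NGLY1. At ZNF460 (35.93-fold, 262 tags) starts of the gene and of ZNF460-AS1 were both within 1 kb, and so was its outer RefSeq end, 469 bp away.

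The remaining 5 of the 20 had no start within 1 kb in the table used. LOC105378179 had 73.12-fold and 286 tags, 2614 bp inside. In CHD2, a chromatin remodeller, the summit was intronic, with 32.34-fold enrichment on 533 tags, and the nearest start was 4048 bp away. KLHL12, an adaptor of the CUL3 ubiquitin ligase, had 32.06-fold and 324 tags, 1372 bp from its start. LOC101928236 (32.45-fold) and LOC105370571 (30.58-fold) were the others. The start table held neither gene, so a start of their own could not be found.

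**Figure D5:**
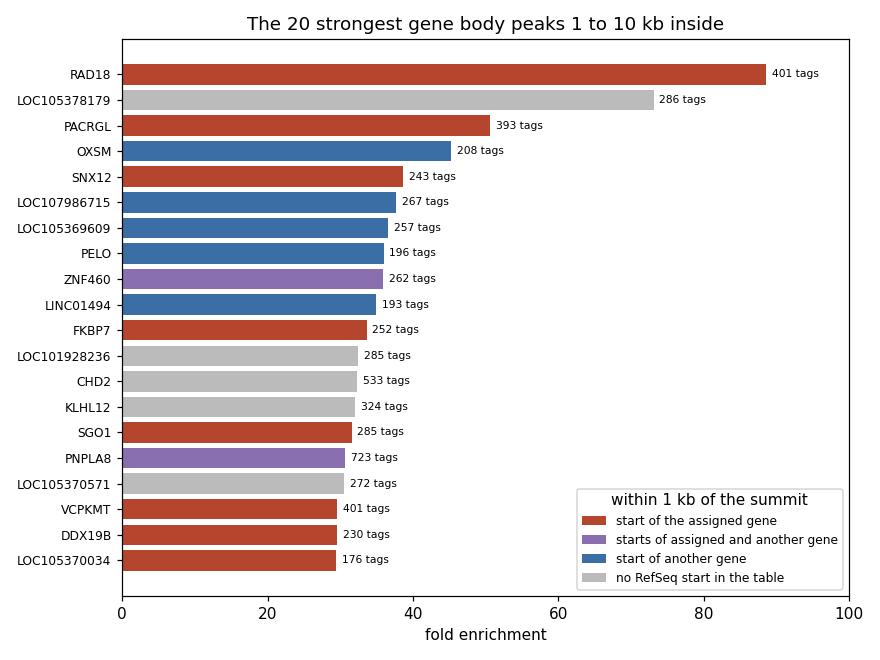
Fold enrichment of the 20 strongest gene body peaks 1 to 10 kb inside, coloured by the RefSeq start found within 1 kb of the summit and labelled with the number of tags. RAD18 leads at 88.56-fold, and 5 of the 20 have no start within 1 kb in the start table, which lacks LOC101928236 and LOC105370571.

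Peaks with the most tags were wide and mostly of modest fold enrichment. PIDD1, the scaffold of the PIDDosome, had 2072 tags over 20118 bp at 6.35-fold, 86 bp from an internal start. PKD1, the polycystin gene, had 1861 tags at 3.19-fold in the widest peak of the class, 22460 bp. AATK, a kinase gene, had 1837 tags at 15.27-fold, SRMS, a kinase of the SRC group, 1728 at 14.10-fold, and ABCA2, a lipid transporter, 1682 at 4.05-fold over 21022 bp. INTS1, an Integrator subunit (3.26-fold, 1626 tags), was the third widest at 20731 bp. In the class 156 peaks were longer than 5 kb (4.21%, interval 3.58 to 4.90%), against 2.48% of all listed peaks. The share was 1.53% within 1 kb of an end and 1.46% over 10 kb inside. Medians for the 156 were 468.5 tags and 4.165-fold, and for the rest 79 tags and 6.32-fold. PKD1 has near-identical pseudogene copies and the handling of reads that match several places is not stated, so its value is uncertain.

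Classical CRE targets in the class held more tags than its median gene, as did several other gene lists. Of 36 such targets among the listed peaks, 12 were gene body peaks 1 to 10 kb inside (33.3%). The interval of 18.6 to 51.0% covers the 24.6% of all listed genes. The median of these targets was 405 tags, against 86 for the whole class, and 8.105-fold against 6.25. Over all lists together it was 163 tags, from 54 for WNT pathway genes to 410 for RAS-MAPK and 420 for PI3K-AKT-mTOR genes. The immediate early genes among them differed widely. NR4A2, an orphan nuclear receptor, had 21.80-fold and 978 tags in an exonic peak on chromosome 2 (156331962 to 156335350), 55 bp from an outer end of the gene in RefSeq, whereas NR4A1 had 8.12-fold and 390 tags, and NR4A3 3.35-fold and 178 tags. IER2 had 18.53-fold and 1300 tags, EGR2, a zinc finger factor, 8.09-fold and 661 tags, and FOSB, an AP-1 subunit, 5.26-fold and 79 tags. VGF, a neuropeptide precursor, had 10.49-fold and 1057 tags, 122 bp from a start. The clock repressors PER2 and PER1 had 8.45-fold with 64 tags and 5.62-fold with 146 tags, both on the 3′ side. PCK1, the gluconeogenic enzyme, had 25 tags.

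Of 39 listed genes of the ATF, CREB and AP-1 family and their coactivators, 8 were in the class. Their median was 7.81-fold and 66.5 tags, against 6.25-fold and 86 tags over the whole class. None of the 8 reached 10-fold, against 13.3% of the class, and with so few genes nothing is read from this. ATF5 (8.92-fold, 389 tags) and ATF4 (7.81-fold, 363 tags), both stress response factors, and JDP2, an AP-1 repressor (7.46-fold, 326 tags), had starts within 1 kb. BACH2 (9.35-fold, 32 tags) and FOSL2 (8.95-fold, 25 tags) held few tags and were closer to the 3′ end than to the 5′ end. High fold enrichment in these 2 therefore rested on small counts. Circadian clock genes had 7 of 22 in the class (median 6.17-fold, 341 tags), among them ARNTL, now BMAL1, the positive arm of the clock (8.18-fold, 570 tags), DBP (8.07-fold, 333 tags) and CLOCK (6.17-fold, 421 tags). Unfolded protein response genes had 4 of 23 (median 7.265-fold), with the sensor kinase ERN1 at 7.72-fold and TRIB3 at 6.81-fold.

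Cell cycle and DNA repair genes each held 1 very strong peak in the class. Of 30 cell cycle genes listed, 8 were in it, with a median of 7.235-fold. CDC25C, the phosphatase that activates CDK1 for mitosis, had 26.97-fold and 72 tags, 6440 bp inside the listed gene and 38 bp from a RefSeq start. CDKN1A, the p21 inhibitor, had 9.82-fold and 636 tags, and MCM7, a subunit of the replicative helicase, 9.56-fold and 1022 tags, 6 bp from a start. Among 28 DNA repair genes 5 were in the class (median 8.28-fold), and after RAD18 came LIG4, the ligase of end joining, with 10.59-fold and 148 tags, 88 bp from a start, and FANCC at 8.28-fold. Apoptosis genes had 9 of 27 (median 6.34-fold). DIABLO, the antagonist of inhibitor of apoptosis proteins, had 10.42-fold and 664 tags, 12 bp from a start, TNFRSF10A, a death receptor, 11.10-fold on 28 tags, and BBC3, a BH3-only gene, 7.22-fold and 336 tags.

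RAS-MAPK genes had 5 of 27 in the class, with a median of 4.86-fold and 410 tags, against 6.25-fold and 86 tags over the whole class. SPRED2 (5.42-fold, 503 tags) and SPRY1 (4.86-fold, 410 tags), inhibitors of the pathway, and SOS1, an exchange factor (4.53-fold, 266 tags), were on this list, and ERBB2 had 5.26-fold on 49 tags. PI3K-AKT-mTOR genes had 3 of 24 (median 5.20-fold, 420 tags), namely SGK1 (8.16-fold, 420 tags), AKT2 (5.20-fold, 245 tags) and AKT1 (3.65-fold, 1189 tags over 16944 bp). WNT pathway genes had 4 of 33 (median 6.455-fold, 54 tags). TCF7L2, the WNT effector of intestinal cells (4.78-fold, 308 tags), held more tags than RNF43 (7.25-fold, 50 tags) and WNT11 (7.25-fold, 38 tags).

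Tissue genes and chromatin regulators complete the lists. Intestinal epithelial genes had 4 of 20 in the class (median 4.445-fold, 248 tags), led by KLF5, a crypt transcription factor, at 9.25-fold and 442 tags, 119 bp from an internal start, while MUC5AC, a secreted mucin, had 3.80-fold. Chromatin modifier genes had 9 of 38 (median 6.42-fold), with KDM6B, an H3K27 demethylase, at 15.52-fold and 635 tags and SETD1A, an H3K4 methyltransferase, at 8.51-fold and 449 tags. Neuron markers had 7 of 15 (interval 21.3 to 73.4%, median 5.12-fold). The synaptic vesicle gene SYP (18.48-fold, 103 tags), TUBB3, a neuronal tubulin (13.38-fold, 913 tags), and SLC17A7, a glutamate transporter (10.85-fold, 150 tags), reached 10-fold. The rest were below the class median of 6.25-fold: GAD1 (5.12-fold), RBFOX3 (4.95-fold), NCAM1 (4.46-fold) and ELAVL3 (4.01-fold). Lymphocyte markers had 6 of the 8 listed (interval 34.9 to 96.8%, median 6.665-fold, 82 tags), with IL2RA at 8.55-fold on 40 tags and ZAP70 at 7.81-fold on 82. Fibroblast and muscle markers had 4 of 11 (median 6.175-fold), with VIM at 7.85-fold and 436 tags and PDGFRB at 7.23-fold on 34 tags. Over the 15 lists 89 of 364 listed genes were in the class (24.5%, interval 20.1 to 29.2%), beside 24.6% of all listed genes, and 12 of the 89 reached 10-fold, close to the 13.3% of the class.

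Grouped by name, LOC genes were 628 of the 3709 and supplied 31.3% of their 2004 listed names to the class (interval 29.3 to 33.4%). Zinc finger ZNF genes supplied 59 of 331 (17.8%, interval 13.9 to 22.4%), of which 14 of 59 reached 10-fold, against 13.3% of the class, and 29 of 58 had a start within 1 kb, against 24.1% of the class. Histone genes supplied 0 of 31, but genes shorter than 2 kb cannot hold a summit this far inside, and the shortest gene in the class spanned 2183 bp. HOX genes supplied 9 of 25 (36%, interval 18.0 to 57.5%, which covers the 24.6% of all listed peaks). Their median was 5.2-fold, below the 6.25-fold of the class, and only HOXC13 at 13.46-fold and HOXA10 at 10.79-fold reached 10-fold. Solute carrier genes supplied 73 of 258, and antisense RNA genes 50 of 184 (27.2%). Of 3599 peaks matched to the reference 2899 (80.6%) were at protein-coding genes, with a median of 96 tags and 6.11-fold. Long non-coding RNA genes were 655, with 60 tags and 6.69-fold, and 14.3% of these with windows had a start of another gene within 1 kb, compared with 8.16% at protein-coding genes.

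By chromosome the class made up between 16.7% (chromosome 18) and 33.4% (chromosome 19) of listed autosomal peaks, with a median of 25.04%, and 21.2% on chromosome X. Chromosome 19 also had the lowest median fold enrichment of the class, 5.49, with 125 tags. The peaks nearest the limits of the class are given as a description. ENTHD2, SH2D4A and HP1BP3, 1001 to 1004 bp inside, had 4.18-fold, 5.86-fold and 3.88-fold, and CCDC62, C9orf47 and ZBTB10, 999 to 1000 bp inside and so outside the class, had 6.97-fold, 3.07-fold and 3.22-fold. RNF43, CNNM2 and VIPR2, 9995 to 9999 bp inside, had 7.25-fold, 5.66-fold and 6.27-fold, and TRIM9, WSCD2 and KCTD19, 10005 to 10034 bp inside, had 7.99-fold, 6.05-fold and 8.24-fold.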

How the data were processed

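The deposited peak table of the ATF1 ChIP library was analysed. The tools named are bedtools, Bowtie2 and CASAVA, with build hg38, per the submitters' processing notes, which name no peak caller, caller settings, control or annotation. Tags are deposited as raw counts of sequence tags in each peak. Fold enrichment was deposited as a ratio to a background the authors do not state, with a lowest value of 3, and the deposited score (lowest value 50) is undefined; neither was used outside this list. Library depth is unknown. The 1 line without a position was left out.

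Gene names were matched to the RefSeq gene table of GRCh38.p14 by symbol (3283 of the 3709 peaks), LOC number (148) or unique older name (168); 110 had no match. Strand and start sites came from RefSeq windows of 300 bases (35116 windows, 27305 genes). A start or gene end was near when within 1 kb of the summit. Shares have exact (Clopper-Pearson) 95% intervals and densities exact Poisson ones. Densities divide summits by the bases at that distance in all listed genes. A fold of at least 10 stood in for a test. The counting steps were tested on simulated peaks. The class, the gene lists and the tests were chosen with earlier results of these data known. Genes named were the 20 with the highest fold, the 5 with the most tags, the 3 widest, 3 each side of a limit, and up to 4 strongest per list; other list and name-class genes, and those with a CRE after the first 6, were chosen after their values were seen. Alternatives changed the limits, the peak position, the gene ends, the strength and the windows. Python 3.11.15, numpy 2.4.6, pandas 2.3.3, scipy 1.17.1 and matplotlib 3.10.9 were used. Some genes of the lists are counted but not reported here by name.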

Additional observations from a re-analysis of the deposited data

How the results depend on the processing

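The number of peaks in the class stayed between 2556 and 5034 with inner limits of 2000 and 500 bp, outer limits of 5000 and 20000 bp, peak midpoints or RefSeq gene ends, and was 1441 when only peaks at or above the table's median fold were used, by construction. An inner limit of 2000 bp gave medians of 1329.5 bp, 72 tags and a score of 92.9. An outer limit of 5000 bp gave 1539 bp, 100 tags, 6.12-fold and a score of 102.78. Peaks of up to 3000 bp gave 1287.5 bp, 69 tags, 6.49-fold and a score of 90.85. Without an annotated gene end within 1 kb the medians were 1342 bp, 71.5 tags and a score of 91.0 (91.005), and for the 2845 without a listed start within 1 kb, an alternative chosen after seeing the data that counts in the 126 on chromosome 8, 1296 bp, 66 tags and a score of 87.5. At least 5-fold was reached by 71.7%, at least 20-fold by 1.64%, and at least 10-fold by 9.27% of the 2719 on other chromosomes without a start, against 77.5%, 5.08% and 23.9% of all listed peaks. The share within 1 kb of an end of another annotated gene, 15.8% (interval 14.6 to 17.0%), was 11.3% at 500 bp, 25.02% at 2 kb and 6.58% with protein-coding genes only. At 1 kb it was 13.9% for peaks over 10 kb inside (interval 12.4 to 15.6%, which overlaps) and 39.7% near an end. The share nearer the 5′ end was 52.4% among peaks at or above the table's median fold, and, in alternatives chosen after seeing the data, 69.9% in plus-strand genes, 35.0% in minus-strand genes and 35.6% without a start within 1 kb, so the pooled 49.2% describes neither strand. The core TGACG was in 41.9% of windows and the full CRE in 3.30%. For each of these values the cause was not tested. No paired analysis was possible because each group has 1 sample. Library depth is unknown, so a peak's absence does not show that ATF1 was not bound.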

Other observations

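Of the gene body peaks 1 to 10 kb inside, 44 contained 50 annotated microRNA hairpins. Hairpins were not counted in the other listed peaks, so nothing is read from this number. Wide peaks held some of them far from the summit, up to 6471.5 bp in the TH peak. The strongest were at CHD2, with MIR3175 65 bp from the summit, and at NSRP1, a splicing regulator (28.88-fold, 120 tags), with MIR3184 and MIR423 278 and 280.5 bp from it. MIR191 lay 963.5 bp from the summit of the NDUFAF3 peak (9.30-fold, 908 tags).

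The score was exactly 3100 in 53 of the 15064 listed peaks, 5 of them in the class, RAD18 and PNPLA8 among them. What the score is computed from is not stated, so ranking the strongest peaks by it is uncertain.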
